A study of Mus musculus with 18 samples.

Results

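The cardiac channel genes described here were Gja1, Gja5 and Gjc1, which encode gap junction connexins, Hcn2 and Hcn4, which encode pacemaker channels, and Scn4b and Scn10a, which encode sodium channel subunits. They were 7 of the 49315 genes counted in each of 18 RNA-seq libraries. They are a named set, found through the GENCODE M21 symbol of each counted gene identifier. The 7 genes passed the filter on low counts and were among the 15778 genes tested.

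The libraries came from the mid wall of the left ventricle of male mice on the 129SVE background. Knockout (KO) mice, labelled MLP KO, carried a knockout of muscle LIM protein, the product of Csrp3, and wild-type (WT) mice were the controls. There were 3 KO libraries and 3 WT libraries at 3 weeks of age, and the same numbers at 6 and at 10 weeks. No other allele and no treatment is given in the labels, and the labels do not say whether hearts were pooled. The series title places the mice in a model of progressive dilated cardiomyopathy. The labels do not say which part of Csrp3 was altered, and they call the libraries replicates of a group without saying more. The p-values therefore measure the spread between these libraries.

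Connexins assemble into channels that join the cytoplasm of neighbouring heart muscle cells, and current passes from cell to cell through them. Cx43, the product of Gja1, is the main connexin of working ventricular muscle, Cx40 (Gja5) is known from atrial muscle, the ventricular conduction system and arterial endothelium, and Cx45 (Gjc1) from the nodes and the conduction system. Hyperpolarisation-activated HCN channels carry the pacemaker current of the sinoatrial node, where Hcn4 is the main isoform, while Hcn2 is also found in ventricular muscle. Sodium channels carry the upstroke of the action potential, and Scn4b encodes an auxiliary beta subunit and Scn10a a pore subunit best known from sensory neurons.

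Total counts ran from 14980968 to 23001047 per library. Csrp3 was counted over the whole gene and was not lower in KO: its levels ran from 1134 to 2703 CPM (read counts scaled to library size) in KO libraries against 951 to 1111 CPM in WT libraries at 3 weeks. At 6 weeks the range was 1792 to 2483 CPM in KO and 1229.7 to 1486 CPM in WT, and at 10 weeks 1501 to 3416 CPM in KO and 1001 to 1124 CPM in WT. All KO libraries thus lay above all WT libraries at each age. The log2 fold change of KO over WT was 0.80, 0.57 and 1.29 at the 3 ages (edgeR adjusted p = 0.0812, 0.185 and 0.0041). With the altered part unknown, these counts do not check the labels, and KO and WT below mean the libraries labelled so. The 8 cardiomyocyte markers were all detected, with summed levels of 92414 to 125529 CPM over the KO libraries and 73895 to 101576 CPM over the WT libraries. Mitochondrially encoded genes took a mean of 9.47%, 9.51% and 8.37% of the counts in KO hearts at 3, 6 and 10 weeks, against 15.2%, 12.03% and 14.1% in WT hearts. In 4 libraries Myl4, the atrial light chain gene, exceeded 20 CPM and 5 times the median of its group. They were KO replicate 3 at 3 weeks (118 CPM), KO replicate 3 at 6 weeks (436 CPM), KO replicate 1 at 10 weeks (1145 CPM) and WT replicate 2 at 10 weeks (21.2 CPM). WT replicate 3 at 3 weeks, with 23.2 CPM, was not among them, because the median of its group was 12.1 CPM.

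Levels are given as CPM scaled by edgeR's trimmed mean of M values (TMM), and fold changes as log2 values of KO over WT or of the later over the earlier age. A gene was called when the Benjamini-Hochberg adjusted p of edgeR's quasi-likelihood test, over the 15778 genes tested, was under 0.05. At 3 weeks 0 of the 7 genes were called higher and 2 lower in KO, where 15.3% of all tested genes were called in either direction. At 6 weeks 1 was higher and 2 were lower, against 23.8% of all tested genes called. At 10 weeks 0 were higher and 3 lower, against 29.3% called. The median log2 fold change of the 7 genes was -0.33, -0.05 and -0.45 at 3, 6 and 10 weeks, and that of all tested genes was 0.0015, 0.0042 and -0.03. With upper-quartile scaling 45.5% of the calls over all genes at 3 weeks were increases, where TMM scaling gave 56.4%. The member counts at the 3 ages were again 2, 3 and 3 when mitochondrially encoded genes were left out.

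The KO and WT values of a gene did not overlap in 4 of the 7 genes at 3 weeks, Gja1, Gjc1, Hcn2 and Hcn4, each with all KO libraries below all WT libraries. That was so of 30.5% of all tested genes. At 6 weeks the KO values of Scn4b and Gja1 were all above, and those of Hcn2 and Hcn4 all below, the WT values, where 44.2% of all tested genes did not overlap. At 10 weeks the KO values of Gja1, Hcn2 and Hcn4 were all below, against 40.5% of all tested genes. The tissue was sequenced in bulk, so fewer cells of a type and less RNA per cell cannot be told apart in any of these differences.

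**Figure D1:**
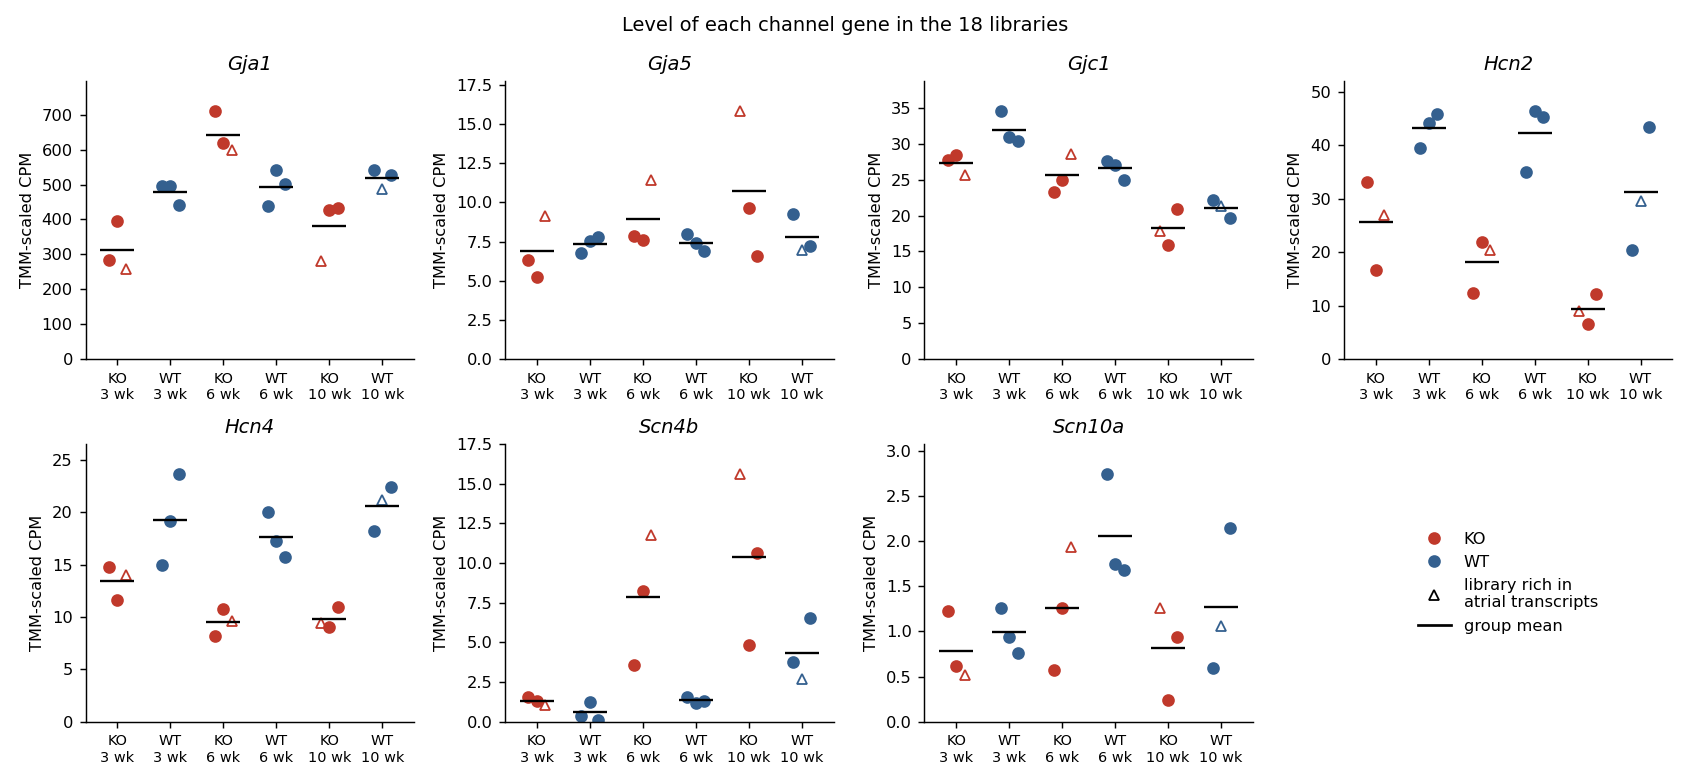
TMM-scaled CPM of each of the 7 channel genes in each library, by genotype and age, with the mean of the 3 libraries of a group as a bar and the libraries rich in atrial transcripts as open triangles. The KO points of Hcn4 lie below the WT points at all 3 ages, and those of Gja1 lie below, above and below them at 3, 6 and 10 weeks.

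Gja1 (ENSMUSG00000050953; GRCm38 chromosome 10, 56377300 to 56390419, plus strand in the count tables) was the most abundant of the 7 genes, and its genotype difference changed direction with age. The 250 bases before its RefSeq start (GRCm38.p6, chr10:56377050-56377299, plus strand) are shown because the genotype difference of Gja1 followed a different course from that of the pacemaker genes below. Capitals mark a match to the GATA motif AGATAA, 135 bases before the start, and one to the AP-1 motif TGACTCA, 19 bases before it, both read on the opposite strand.
Gja1: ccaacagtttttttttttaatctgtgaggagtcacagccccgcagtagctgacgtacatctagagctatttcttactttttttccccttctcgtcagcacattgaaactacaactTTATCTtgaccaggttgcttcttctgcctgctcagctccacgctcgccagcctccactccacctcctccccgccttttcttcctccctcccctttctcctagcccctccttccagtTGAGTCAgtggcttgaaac
Of 32817 RefSeq windows of the same length, 9.99% held AGATAA and 4.46% held TGACTCA on either strand. GC content was 50% in the Gja1 window, against a median of 52.4% over all windows. A match describes the letters and does not show a bound site.

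At 3 weeks Gja1 had 283, 396 and 258 CPM in KO hearts and 497, 495 and 442 CPM in WT hearts. The KO libraries were all below the WT libraries. The mean was 312 ± 73.5 CPM in KO and 478 ± 31.4 CPM in WT (SD, n = 3 each), and Gja1 fell (log2 fold change -0.61, SE 0.16, adjusted p = 0.0103). The call was lost without KO replicate 3, the library rich in atrial transcripts (-0.49, adjusted p = 0.0561), and was kept when all 4 atrial-rich libraries were left out (-0.49, adjusted p = 0.0272).

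At 6 weeks the order was the other way round. Gja1 had 711, 618 and 599 CPM in KO hearts against 438, 542 and 501 CPM in WT hearts, and all KO values were higher. The means were 643 ± 60.2 CPM in KO and 494 ± 52.2 CPM in WT, and the log2 fold change of 0.38 (SE 0.16) was not called (adjusted p = 0.0833). It passed in 3 of 9 other settings of the analysis, with an adjusted p of 0.0360 without the atrial-rich libraries and of 0.0139 with only the groups compared.

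At 10 weeks Gja1 had 281, 427 and 434 CPM in KO hearts and 541, 487 and 528 CPM in WT hearts. The KO libraries were again the lower ones, with a mean of 380.4 ± 86.3 CPM against 519 ± 28.1 CPM in WT, and Gja1 fell (log2 -0.45, SE 0.16, adjusted p = 0.0353). Here the call depended on single libraries: it was lost without KO replicate 1, the library with the most Myl4 (-0.23, adjusted p = 0.254), without WT replicate 1 (adjusted p = 0.101) and without WT replicate 3 (adjusted p = 0.101). It was lost as well without the atrial-rich libraries (-0.31, adjusted p = 0.164), with RLE scaling (adjusted p = 0.0519) and with only the groups compared (adjusted p = 0.0716).

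Within the KO hearts Gja1 rose between the first 2 ages and fell after that. It averaged 643 CPM at 6 weeks and 312 CPM at 3 weeks (log2 1.04, SE 0.16, adjusted p = 0.000183), and 380.4 CPM at 10 weeks against 643 CPM at 6 weeks (log2 -0.76, SE 0.16, adjusted p = 0.0033). Both calls held in all 6 fits that left out 1 library. Gja1 was the 142nd of 15778 genes by p-value in the first of these contrasts. In WT hearts the later-over-earlier log2 changes were 0.05, 0.07 and 0.12 for 6 over 3, 10 over 6 and 10 over 3 weeks, and none was called. Ordered by mean, KO at 6 weeks stood above all other groups with no overlap with the next, WT at 10 weeks. The 3 WT groups overlapped each other, and WT at 3 weeks did not overlap KO at 10 weeks, the next below it.

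The change of the genotype difference itself was tested as an interaction. Its value at 6 over 3 weeks was 0.995 on the log2 scale (SE 0.22, adjusted p = 0.0235), and at 10 over 6 weeks it was -0.83 (SE 0.22, adjusted p = 0.0314). Gja1 was the 1 member called in each of these contrasts, where 1.59% and 5.75% of all tested genes were called. Each call was lost in some fits with 1 library left out, while the log2 values kept their sign. The first passed in 4 of 12 such fits (adjusted p from 0.00358 to 0.0858) and the second in 5 of 12 (0.0140 to 0.0972). Their log2 values ran from 0.87 to 1.20 and from -0.92 to -0.62. The share of all tested genes called in these fits ran from 0.519% to 2.63% and from 2.84% to 9.85%. The first was lost without replicate 1 or 2 of WT at 3 weeks, replicate 1 or 3 of WT at 6 weeks, replicate 1 or 3 of KO at 3 weeks, or replicate 1 or 2 of KO at 6 weeks. The second was lost without replicate 1 or 3 of WT at 6 weeks, replicate 1 or 3 of WT at 10 weeks, replicate 1 or 2 of KO at 6 weeks, or replicate 1 of KO at 10 weeks. Without the atrial-rich libraries the first kept its call (0.92, adjusted p = 0.0350) and the second did not (-0.74, adjusted p = 0.0564).

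**Figure D2:**
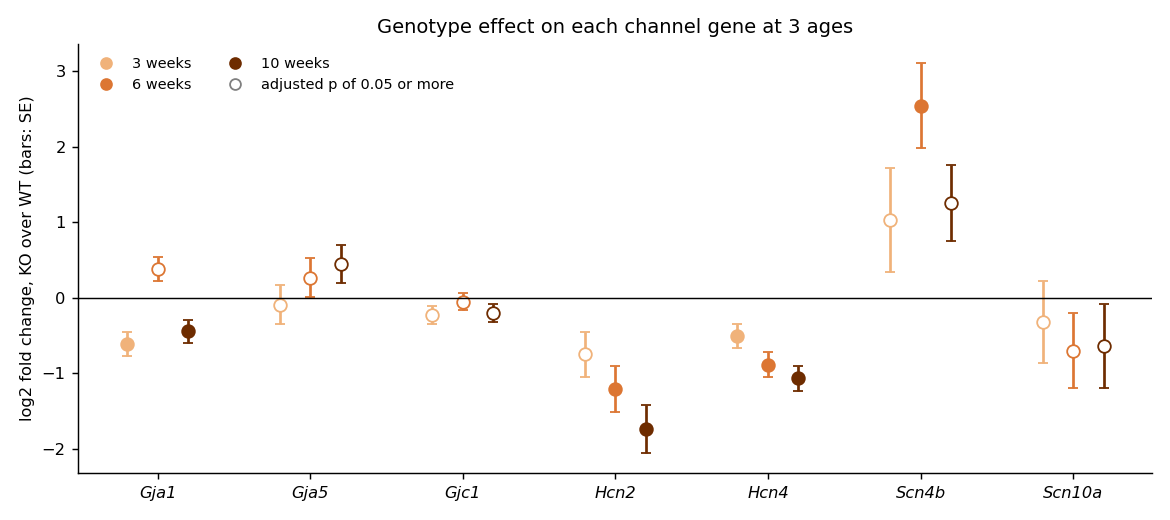
Log2 fold change of KO over WT for each channel gene at 3, 6 and 10 weeks, with bars of 1 SE; filled points were called and open points were not. Hcn2 and Hcn4 lie below 0 at each age, Gja1 crosses 0 between ages, and Scn4b lies above 0.

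Gja5 (ENSMUSG00000057123; GRCm38 chromosome 3, 96904693 to 97077416, plus strand), which encodes Cx40, was not called between genotypes at any age. It shares 165 exon bases with Gpr89 on the opposite strand, and since strand-specific counting is not stated, its counts are uncertain to that extent. KO hearts had 6.30, 5.27 and 9.12 CPM and WT hearts 6.80, 7.55 and 7.79 CPM at 3 weeks. At 6 weeks KO hearts had 7.83, 7.63 and 11.4 CPM against 7.97, 7.43 and 6.93 CPM in WT hearts. At 10 weeks the KO values were 15.9, 9.67 and 6.60 CPM and the WT values 9.27, 6.94 and 7.21 CPM. The groups overlapped at each age, and the highest KO value of each age came from the library rich in atrial transcripts. The log2 fold changes were -0.09, 0.27 and 0.45 (adjusted p = 0.85, 0.501 and 0.202). Without the 4 atrial-rich libraries the value at 10 weeks was -0.02 (adjusted p = 0.963), and without KO replicate 3 at 10 weeks it was 0.72 (adjusted p = 0.0245). The 7 atrial markers summed to 25.3 to 294 CPM over the KO libraries at 3 weeks against 26.6 to 72.0 CPM in WT. Their sums were 32.1 to 962 CPM in KO against 27.1 to 42.7 CPM in WT at 6 weeks, and 30.7 to 2779 CPM in KO against 28.7 to 85.8 CPM in WT at 10 weeks. Over the 3 ages, 1 of the 6 markers tested was called, higher in KO at 10 weeks, where 29.3% of all tested genes were called. Bmp10, a defining marker, was at 0 in every library except in the WT group at 10 weeks, and the part of atrial tissue in the Gja5 values was not tested further. None of the 5 pairs of neighbouring groups in the order of Gja5 means was free of overlap.

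**Figure D3:**
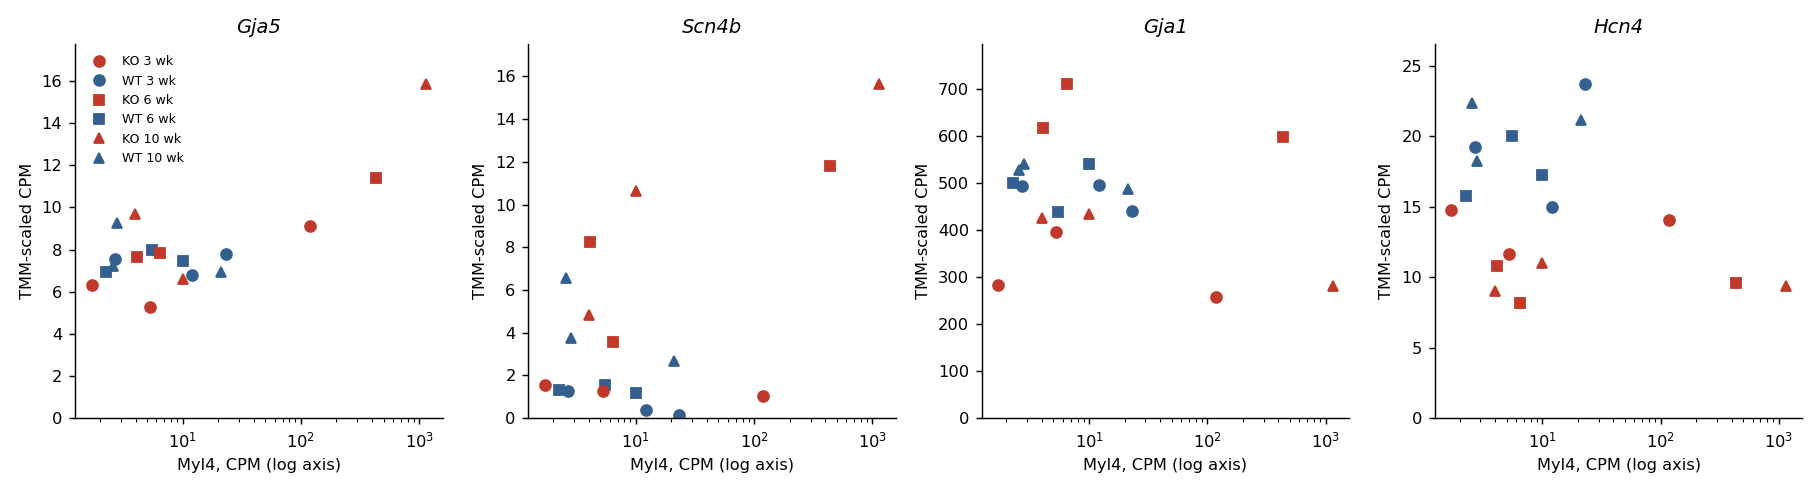
TMM-scaled CPM of Gja5, Scn4b, Gja1 and Hcn4 against the CPM of the atrial marker Myl4 on a log axis, with 1 point per library coloured by genotype and shaped by age. The highest values of Gja5 and Scn4b, 15.9 and 15.6 CPM, belong to the library with 1145 CPM of Myl4.

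Gjc1 (ENSMUSG00000034520; GRCm38 chromosome 11, 102799579 to 102819700, minus strand), which encodes Cx45, fell with age in both genotypes. In KO hearts it had 27.7, 28.5 and 25.6 CPM at 3 weeks, 23.3, 25.0 and 28.6 CPM at 6 weeks and 17.9, 15.8 and 20.95 CPM at 10 weeks. WT hearts had 34.6, 30.9 and 30.3 CPM at 3 weeks, 27.6, 27.1 and 25.0 CPM at 6 weeks and 22.2, 21.3 and 19.6 CPM at 10 weeks. All 10-week values lay below all 3-week values within each genotype. The log2 change at 10 over 3 weeks was -0.58 in KO (SE 0.12, adjusted p = 0.00119) and -0.60 in WT (SE 0.12, adjusted p = 0.0011), and it was called in each of the 15 alternative fits in either genotype. The difference between these 2 age changes was 0.02 (SE 0.17, adjusted p = 0.962). Between 6 and 10 weeks Gjc1 fell in KO (-0.49, SE 0.12, adjusted p = 0.00876). This call was lost without KO replicate 3 at 6 weeks (-0.41, adjusted p = 0.0594) or KO replicate 2 at 10 weeks (-0.38, 0.0888). It was also lost without the atrial-rich libraries (-0.39, adjusted p = 0.133) and with only the groups compared (-0.49, adjusted p = 0.0773).

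Gjc1 was not called between genotypes. At 3 weeks all KO values lay below all WT values, with a log2 fold change of -0.23 (SE 0.11, adjusted p = 0.194). The values at 6 and 10 weeks were -0.05 and -0.21 (adjusted p = 0.798 and 0.205), and KO and WT overlapped at both ages. In the order of group means WT at 3 weeks came first with no overlap with KO at 3 weeks, and KO at 6 weeks did not overlap WT at 10 weeks.

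Hcn4 and Hcn2, the pacemaker channel genes, had all KO values below all WT values at each age. The 250 bases before their RefSeq starts are shown because both genes fell in KO at 6 and 10 weeks. Capitals mark the GC box motif GGGCGG, here read on the opposite strand. The Hcn2 window is chr10:79716384-79716633 and the Hcn4 window chr9:58822699-58822948 (GRCm38.p6, plus strand).
Hcn2: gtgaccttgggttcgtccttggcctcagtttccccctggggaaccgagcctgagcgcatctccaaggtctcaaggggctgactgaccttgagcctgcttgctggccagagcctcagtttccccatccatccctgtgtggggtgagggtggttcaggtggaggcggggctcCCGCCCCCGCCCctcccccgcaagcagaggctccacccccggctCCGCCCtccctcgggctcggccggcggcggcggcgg
Hcn4: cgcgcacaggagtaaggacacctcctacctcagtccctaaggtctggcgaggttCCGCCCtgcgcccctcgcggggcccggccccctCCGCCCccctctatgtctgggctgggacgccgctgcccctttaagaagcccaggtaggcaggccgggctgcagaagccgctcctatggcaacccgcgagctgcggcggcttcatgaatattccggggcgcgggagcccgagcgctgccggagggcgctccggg
The Hcn2 window held 3 matches, 80, 74 and 36 bases before the start, the first pair directly adjacent. The Hcn4 window held 2, at 196 and 163 bases. The GC box was present in 32.7% of the 32817 windows, and GC content was 70.4% for Hcn2 and 71.2% for Hcn4 against the median of 52.4%. The other motifs searched on both strands were the E-box CACGTG, in 6.02% of all windows, the Nkx2-5 motif TNAAGTG, in 10.1%, and the TATA box TATAAA, in 12.4%, besides the GATA and AP-1 motifs above. None of these 5 was found in the Hcn2 or Hcn4 window, which says only that these letters are not there. Of the other members with a window, Gja5 held 1 GC box, Gja1 held none, and Scn4b and Scn10a held no match to any of the 6 motifs; Gjc1 had no entry in the promoter table.

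Hcn4 (ENSMUSG00000032338; GRCm38 chromosome 9, 58823412 to 58863175, plus strand) had 14.7, 11.7 and 14.03 CPM in KO hearts and 15.002, 19.2 and 23.7 CPM in WT hearts at 3 weeks. The highest KO value lay just under the lowest WT value. The log2 fold change of -0.51 (SE 0.16, adjusted p = 0.0347) passed, but in only 2 of 6 fits with 1 library left out. The call was lost without WT replicate 2 (adjusted p = 0.0813), WT replicate 3 (0.173), KO replicate 2 (0.144) or KO replicate 3 (0.0594). It was also lost without the atrial-rich libraries (adjusted p = 0.0767) and with only the groups compared (adjusted p = 0.0769).

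At 6 weeks Hcn4 had 8.18, 10.8 and 9.58 CPM in KO hearts and 20.009, 17.3 and 15.7 CPM in WT hearts. At 10 weeks it had 9.40, 9.01 and 10.97 CPM in KO hearts against 18.2, 21.2 and 22.4 CPM in WT hearts. The lowest WT value stood well above the highest KO value at both ages. Hcn4 fell by 0.89 on the log2 scale at 6 weeks (SE 0.16, adjusted p = 0.00039) and by 1.07 at 10 weeks (SE 0.17, adjusted p = 4.66e-05), and both calls held in each of the 15 alternative fits. The adjusted p over those fits ran up to 0.00454 at 6 weeks and to 0.00213 at 10 weeks.

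The 6 groups of Hcn4 fell into 3 levels that did not overlap. The 3 WT groups averaged 20.6 CPM at 10 weeks, 19.3 CPM at 3 weeks and 17.7 CPM at 6 weeks and overlapped each other. KO at 3 weeks, with 13.5 CPM, did not overlap WT at 6 weeks above it or KO at 10 weeks below it. KO averaged 9.79 CPM at 10 weeks and 9.52 CPM at 6 weeks, and these groups overlapped. Within KO the log2 change was -0.50 at 6 over 3 weeks (adjusted p = 0.0531) and -0.46 at 10 over 3 weeks (adjusted p = 0.055), neither called. The first passed with DESeq2 (adjusted p = 0.0381), with no expression filter (0.0426) and without KO replicate 2 at 3 weeks (0.0386). The second passed with upper-quartile scaling (0.0404) and without KO replicate 2 at 3 weeks (0.0395) or KO replicate 3 at 10 weeks (0.0495).

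Hcn2 (ENSMUSG00000020331; GRCm38 chromosome 10, 79716634 to 79736108, plus strand) had 33.1, 16.7 and 26.9 CPM in KO hearts against 39.4, 44.2 and 45.9 CPM in WT hearts at 3 weeks. It had 12.3, 21.9 and 20.4 CPM in KO hearts and 35.0, 46.4 and 45.3 CPM in WT hearts at 6 weeks. At 10 weeks the KO values were 9.05, 6.53 and 12.2 CPM and the WT values 20.4, 29.6 and 43.5 CPM. All KO values were below all WT values at each age, and the WT hearts at 10 weeks were the widest-spread group, with an SD of 11.6 CPM.

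Hcn2 was not called at 3 weeks by edgeR (log2 -0.75, SE 0.30, adjusted p = 0.106), while DESeq2 (adjusted p = 0.0338) and limma voom (adjusted p = 0.0386) called it, as did the fit with only the groups compared (adjusted p = 0.035). It fell by 1.21 on the log2 scale at 6 weeks (SE 0.30, adjusted p = 0.00838) and by 1.75 at 10 weeks (SE 0.32, adjusted p = 0.000749). Both calls held in all 6 fits with 1 library left out. Without the 4 atrial-rich libraries the value at 6 weeks was -1.30 with an adjusted p of 0.0563, and that at 10 weeks -1.76 with an adjusted p of 0.0235. Hcn2 was also the member with the largest decline with age in KO: it averaged 9.26 ± 2.84 CPM at 10 weeks and 25.6 ± 8.28 CPM at 3 weeks (log2 -1.47, SE 0.32, adjusted p = 0.00424). That call was kept in the 6 fits with 1 library left out and was lost without the atrial-rich libraries (-1.41, adjusted p = 0.0715). In WT hearts Hcn2 averaged 31.1 ± 11.6 CPM at 10 weeks and 43.1 ± 3.37 CPM at 3 weeks, which was not called (log2 -0.47, adjusted p = 0.312). The interaction at 10 over 3 weeks was -0.99 for Hcn2 (SE 0.43, adjusted p = 0.213) and -0.56 for Hcn4 (SE 0.23, adjusted p = 0.173). None of the 7 genes was called there by edgeR, which called 5.76% of all tested genes, and 2 had an unadjusted p under 0.05. DESeq2 and limma voom called 0 of the 7, against 8.18% and 5.54% of all tested genes.

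Together Hcn2 and Hcn4 amounted to 10.2, 7.25 and 4.50 CPM per kilobase of counted exon length in KO hearts at 3, 6 and 10 weeks, and to 16.7, 16.1 and 13.1 CPM per kilobase in WT hearts. Hcn2 made up 77.7% ± 3.999, 78.0% ± 3.34 and 63.7% ± 5.06 of this sum in KO (SD, n = 3 each) and 81.2% ± 2.34, 81.8% ± 4.16 and 73.3% ± 5.33 in WT. At 10 weeks the KO libraries held 64.8%, 58.1% and 68.0% and the WT libraries 68.2%, 72.8% and 78.8%, which did not overlap, while at 3 and 6 weeks they overlapped. These shares were not tested, and reads per gene without the correction for length gave 47.9% in KO and 59.0% in WT at 10 weeks.

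**Figure D4:**
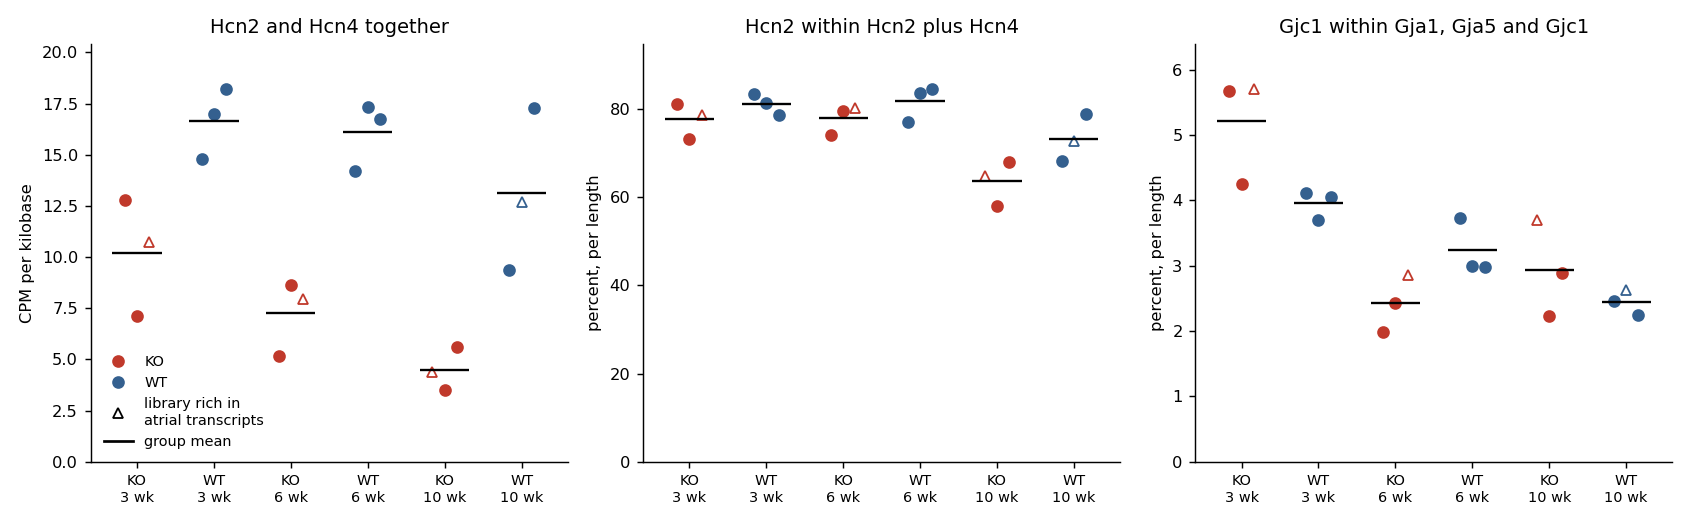
Summed level of Hcn2 and Hcn4 in CPM per kilobase, percentage of that sum held by Hcn2, and percentage of the summed Gja1, Gja5 and Gjc1 level held by Gjc1, with 1 point per library and the group mean as a bar. The pacemaker sum is 4.50 CPM per kilobase in KO and 13.1 in WT at 10 weeks, and the Gjc1 share is highest in KO at 3 weeks, where it averages 5.21%.

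Scn4b (ENSMUSG00000046480; GRCm38 chromosome 9, 45138395 to 45154152, plus strand) was the 1 member called higher in KO. At 3 weeks it was close to the limit of detection, with 35, 23 and 22 counts in KO libraries and 8, 27 and 2 counts in WT libraries. These counts were 1.53, 1.29 and 1.03 CPM in KO and 0.388, 1.27 and 0.127 CPM in WT, and they overlapped (log2 1.03, SE 0.69, adjusted p = 0.357). This log2 value ran from 0.62 without WT replicate 3 to 2.22 without WT replicate 2, neither called, and it was called with no expression filter (1.03, adjusted p = 0.0302). At 6 weeks Scn4b had 3.57, 8.24 and 11.8 CPM in KO hearts against 1.54, 1.20 and 1.31 CPM in WT hearts. All KO values were above all WT values, the KO values differing widely among themselves. Scn4b rose in KO (log2 2.55, SE 0.56, adjusted p = 0.00328), and the call held in each of the 15 alternative fits, with log2 values from 2.14 to 2.90.

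At 10 weeks Scn4b had 15.6, 4.84 and 10.6 CPM in KO hearts and 3.75, 2.69 and 6.57 CPM in WT hearts. The lowest KO value lay inside the WT range, and the log2 fold change of 1.26 (SE 0.50) was not called (adjusted p = 0.0745). It passed without WT replicate 3 (1.69, adjusted p = 0.0454) and without KO replicate 2 (1.62, adjusted p = 0.0252). The highest KO value at 6 and at 10 weeks came from the library rich in atrial transcripts, and without the 4 such libraries the log2 value was 2.14 at 6 weeks (adjusted p = 0.0111) and 0.59 at 10 weeks (adjusted p = 0.486).

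With age Scn4b rose in both genotypes. In KO hearts it averaged 10.4 ± 5.41 CPM at 10 weeks and 1.28 ± 0.252 CPM at 3 weeks (log2 3.001, SE 0.56, adjusted p = 0.00135), and 7.87 ± 4.13 CPM at 6 weeks against that 3-week mean (log2 2.61, SE 0.56, adjusted p = 0.00671). The second call was lost without the atrial-rich libraries (2.06, adjusted p = 0.0607). WT hearts averaged 4.33 ± 2.004 CPM at 10 weeks and 0.596 ± 0.601 CPM at 3 weeks (log2 2.77, SE 0.63, adjusted p = 0.00697). This value was 3.96 without WT replicate 2 at 3 weeks, the library with 27 counts. Between 6 and 10 weeks WT hearts had a log2 change of 1.68 (SE 0.57, adjusted p = 0.0822), and between 3 and 6 weeks one of 1.09 (adjusted p = 0.38). The interaction of genotype with age was not called for Scn4b, with 1.52 at 6 over 3 weeks (SE 0.90, adjusted p = 0.454) and 0.23 at 10 over 3 weeks (SE 0.89, adjusted p = 0.923).

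Scn10a (ENSMUSG00000034533; GRCm38 chromosome 9, 119608456 to 119719322, minus strand) was low throughout, with 4 to 50 counts per library. It had 1.23, 0.616 and 0.514 CPM in KO hearts and 1.26, 0.944 and 0.760 CPM in WT hearts at 3 weeks. At 6 weeks the KO values were 0.576, 1.26 and 1.94 CPM and the WT values 2.75, 1.75 and 1.68 CPM, and at 10 weeks 1.26, 0.242 and 0.934 CPM in KO and 0.592, 1.06 and 2.15 CPM in WT. The groups overlapped at each age, and all neighbouring groups in the order of means overlapped. The log2 fold changes were -0.33 (SE 0.54), -0.70 (SE 0.50) and -0.64 (SE 0.55), and no adjusted p was under 0.348. A genotype difference in Scn10a was not detected at these counts. Nerve markers were low as well: 5 of 12 were tested, with summed levels of 14.9 to 22.7 CPM over the KO libraries and 10.1 to 15.9 CPM over the WT libraries. Among them 1 was called higher and 1 lower at each age, against 15.3%, 23.8% and 29.3% of all tested genes called. The part of these markers in the Scn10a values was not tested.

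Across age, 2 of the 7 genes were called higher and 0 lower in KO hearts at 6 over 3 weeks, Scn4b and Gja1, where 11.6% of all tested genes were called. At 10 over 6 weeks 0 were higher and 2 lower in KO, Gja1 and Gjc1, against 12.7%. At 10 over 3 weeks 1 was higher and 2 were lower in KO, against 20.1%, namely Scn4b on one side and Gjc1 and Hcn2 on the other. This last count was 5 without KO replicate 2 at 3 weeks, with Hcn4 (adjusted p = 0.0395) among the called genes, and 5 without KO replicate 3 at 10 weeks, with Hcn4 (adjusted p = 0.0495) and Gja5 (log2 0.90, adjusted p = 0.00898). Those fits called 15.7% and 19.6% of all genes they tested. In WT hearts 0 of the 7 genes were called by edgeR at 6 over 3 weeks (5.18% of all tested genes). Gjc1 alone had an unadjusted p under 0.05, and DESeq2 (8.24%) and limma voom (5.96%) called 0 as well. At 10 over 6 weeks 0 were called by edgeR in WT (8.77%), with 2 genes under an unadjusted p of 0.05, Scn4b and Gjc1. DESeq2 (10.8%) and limma voom (8.41%) called 0 there too. At 10 over 3 weeks Scn4b was higher and Gjc1 lower in WT (16.5%). The KO-over-WT comparisons and the age comparisons share libraries.

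**Figure D5:**
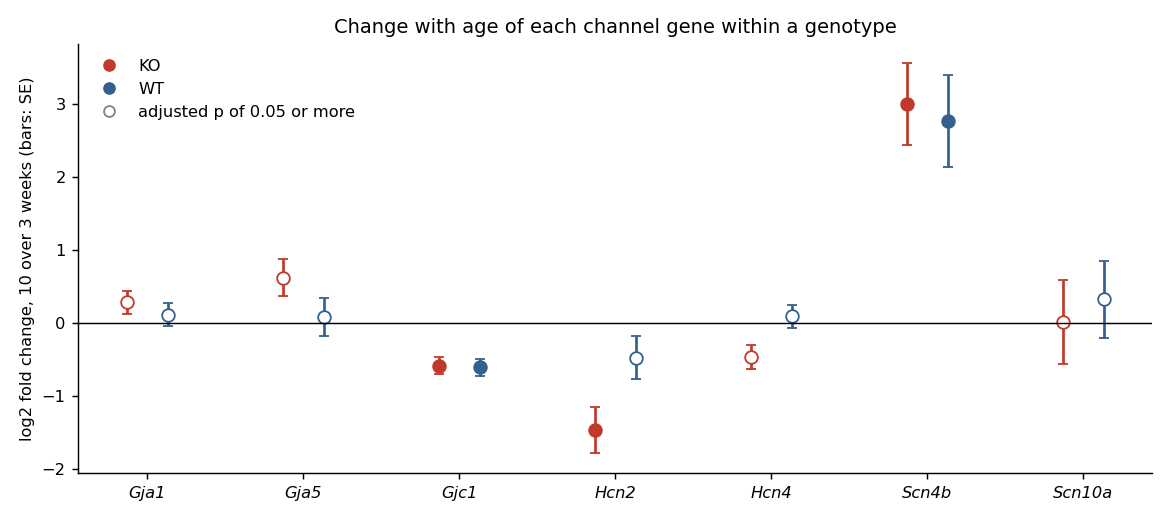
Log2 fold change of 10 over 3 weeks for each channel gene, in KO and in WT hearts, with bars of 1 SE; filled points were called and open points were not. Scn4b and Gjc1 were called in both genotypes, with 3.001 and -0.58 in KO and 2.77 and -0.60 in WT, and Hcn2 was called in KO at -1.47.

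Per kilobase of counted length Gja1 had by far the highest level of the 7 genes, with group means from 101 CPM per kilobase (KO at 3 weeks) to 207 CPM per kilobase (KO at 6 weeks). Hcn2 ranged from 2.90 to 13.5 CPM per kilobase, Gjc1 from 3.64 to 6.39, Hcn4 from 1.56 to 3.37, Gja5 from 1.20 to 1.86, Scn4b from 0.120 to 2.08 and Scn10a from 0.0986 to 0.259. The ratio of the highest to the lowest group mean was 17.4 for Scn4b, 4.66 for Hcn2, 2.62 for Scn10a, 2.16 for Hcn4, 2.06 for Gja1, 1.75 for Gjc1 and 1.55 for Gja5. In WT hearts at 10 weeks Hcn2, at 9.75 CPM per kilobase, stood above Gjc1, at 4.20, whereas in KO hearts at 10 weeks Hcn2, at 2.90, stood below Gjc1, at 3.64. Of the summed connexin level per kilobase, Gja1 made up 93.6%, 96.8% and 95.5% in KO hearts at 3, 6 and 10 weeks and 95.2%, 96.0% and 96.8% in WT hearts. Gjc1 made up 5.21% ± 0.833, 2.42% ± 0.435 and 2.94% ± 0.736 in KO and 3.96% ± 0.225, 3.24% ± 0.429 and 2.44% ± 0.191 in WT. At 3 weeks its share in each KO library, 4.25% to 5.71%, was above that in each WT library, 3.70% to 4.12%, and at 6 weeks, with 1.98% to 2.85% in KO and 2.99% to 3.73% in WT, it was below.

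The genes with the most similar course over the 18 libraries were sought among 15777 others by the root mean square (RMS) difference of log2 CPM, each gene centred on its own mean. The nearest to Gja1 were Tom1l1 (RMS difference 0.203), Slc45a4 (0.217) and 3110040N11Rik (0.224), where the SD of Gja1 itself was 0.386. The nearest to Gjc1 were Coro1b (0.0987), Ift46 and Hdac1 (0.145 each), with an SD of 0.284 for Gjc1, and the nearest to Gja5 were Gk (0.214), Nod2 (0.220) and Trf (0.228), with an SD of 0.341. Hcn4 was nearest to Akt1 (0.186), Apex2 (0.188) and Aldh5a1 (0.189), with an SD of 0.473. For Hcn2 the nearest were Klhdc8a (0.294), Spata33 (0.297) and the unnamed gene ENSMUSG00000091089 (0.316), with an SD of 0.847. Neither pacemaker gene was among the 3 nearest to the other. Scn4b, with an SD of 1.59, was nearest to Slc1a2 (0.738), Prune2 (0.776) and Cacna1s (0.888), and Scn10a, with an SD of 0.744, to Colca2 (0.452), Gm31520 (0.483) and Tcf15 (0.489).

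The other genes of the same pathways were examined as lists. For each list below, the calls stand against 15.3%, 23.8% and 29.3% of all tested genes called at 3, 6 and 10 weeks. Of 12 other sodium channel subunit genes 8 were tested, and 0 rose and 2 fell in KO at 3 weeks, 1 rose and 1 fell at 6 weeks, and 1 rose and 1 fell at 10 weeks. Scn4a, the pore subunit gene of skeletal muscle, fell at each age, by 1.83, 1.04 and 2.43 on the log2 scale, to 8.86 ± 1.14 CPM in KO at 10 weeks against 47.7 ± 9.67 CPM in WT. Scn7a fell by 0.95 at 3 weeks. The list's median log2 fold change was -0.39, -0.22 and 0.05 at the 3 ages, and Scn9a was at 0 in every library.

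Of 8 genes of other HCN channels and HCN partners 6 were tested, and 1 rose and 0 fell at each age. Bves, which encodes a cAMP-binding Popeye domain protein, rose by 0.51 at 3 weeks (adjusted p = 0.00348) and by 0.49 at 6 weeks (adjusted p = 0.00272), and its relative Popdc2 rose by 0.42 at 10 weeks (adjusted p = 0.00842). The list's medians were 0.16, 0.07 and 0.25. Over the alternative fits the number called ran from 1 to 3 at 3 weeks, from 1 to 2 at 6 weeks and from 0 to 3 at 10 weeks, and 22 of these 45 counts were more than 1.5 times away from those above.

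Of 20 other connexin and pannexin genes 6 were tested, and 2 rose and 1 fell at 3 and at 6 weeks and 1 rose and 1 fell at 10 weeks. The gene that fell was Gja3, another connexin gene, with 11.9 ± 0.744, 12.9 ± 0.116 and 7.67 ± 2.31 CPM in KO against 20.3 ± 1.38, 20.7 ± 0.632 and 17.9 ± 1.80 CPM in WT (log2 -0.77, -0.68 and -1.23). Panx1, which encodes a large-pore channel protein, rose by 0.80, 1.13 and 2.03, and Panx2 rose by 0.99 at 3 weeks and 1.68 at 6 weeks. The list's medians were 0.08, 0.72 and 0.29.

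Of 21 partners of sodium channels and connexins 20 were tested, and 6 rose and 1 fell at 3 weeks, 8 rose and 1 fell at 6 weeks, and 11 rose and 2 fell at 10 weeks. Pkp2, a desmosomal protein gene of the intercalated disc, rose by 0.44, 0.50 and 1.21, to 398 ± 42.0 CPM in KO against 172 ± 13.5 CPM in WT at 10 weeks. Lnx1, which encodes a ubiquitin ligase, rose by 0.76, 0.78 and 2.23, and its relative Lnx2 rose by 0.98 at 3 weeks and 0.80 at 10 weeks. Ank3, an ankyrin gene, rose by 0.48, 0.69 and 0.48, and the kinase gene Src by 0.80 at 6 weeks and 1.06 at 10 weeks. Cxadr, which encodes a disc adhesion receptor, fell by 0.82, 0.53 and 0.60, and Gpd1l fell by 0.47 at 10 weeks. The list's medians were 0.17, 0.22 and 0.36.

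Of 28 regulators and markers of nodal and conduction tissue 27 were tested, and 2 rose and 2 fell at 3 weeks, 6 rose and 4 fell at 6 weeks, and 5 rose and 6 fell at 10 weeks. Cntn2, a marker of the conduction system, averaged 2.55 ± 0.681 CPM in KO and 7.16 ± 3.21 CPM in WT at 6 weeks (log2 -1.48, adjusted p = 0.026) and 2.53 ± 0.694 CPM in KO and 14.4 ± 8.19 CPM in WT at 10 weeks (log2 -2.50, adjusted p = 0.000655). Tbx3, a transcription factor gene of the nodes, fell by 1.21 at 10 weeks, and Hopx fell by 1.43 at 6 weeks and 1.18 at 10 weeks. Rgs6 fell by 0.80, 0.86 and 0.74 at the 3 ages, Id2 by 0.85 at 3 weeks and Bmp2 by 1.14 at 6 weeks. Among the genes that rose, Tbx18 rose by 0.94, 1.33 and 2.26, Tbx20 by 0.66, 0.88 and 0.97, the ryanodine receptor gene Ryr3 by 2.09 at 6 weeks and 3.74 at 10 weeks, and Igfbp5 by 0.98 at 6 weeks and 0.62 at 10 weeks. The summed level of this list ran from 1074 to 1075 CPM in KO and 989 to 1096 CPM in WT at 3 weeks, from 1068 to 1178 CPM in KO and 1114 to 1154 CPM in WT at 6 weeks, and from 952 to 1033 CPM in KO and 999.6 to 1142 CPM in WT at 10 weeks. Isl1 was at 0 in every library. The part of conduction tissue in the Hcn2 and Hcn4 differences was not tested.

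Markers of the cells that could hold these channels were counted in the same way. At 3, 6 and 10 weeks, 15.3%, 23.8% and 29.3% of all tested genes were called. Of 8 cardiomyocyte markers, 3 were higher and 1 lower in KO at 3 weeks, 1 higher and 1 lower at 6 weeks, and 2 higher and 1 lower at 10 weeks. Of 10 arterial endothelial markers, the source of vascular Gja5, 0 were higher and 1, 2 and 2 were lower at the 3 ages, with summed levels of 120 to 172 CPM over the KO libraries and 140.4 to 171 CPM over the WT libraries. Of 8 pan-endothelial markers 0, 3 and 3 were lower and 0 higher, and of 8 smooth muscle and pericyte markers 1, 1 and 2 were higher and 2, 2 and 3 lower. Their part in the values of the 7 genes was not tested.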

How the data were processed

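Total RNA from frozen left ventricle was sequenced in 18 libraries made with a NEBNext Ultra II kit, per the labels' protocols. The deposited values are raw read counts per gene; per the submitters' processing notes, the tools were STAR 2.5.2b, Trimmomatic 0.36 and featureCounts of Subread 1.5.2, with the build GRCm38. The annotation release, the strand setting and the handling of reads that map to several places are not given in the sources used here. Of 49315 gene identifiers, 49056 matched GENCODE M21 and 259 did not.

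The members and the gene lists were chosen with earlier results of these data known. One edgeR 4.0.16 model (R 4.3.3; robust quasi-likelihood, TMM) was fitted to the 18 libraries with a mean per group and 12 contrasts. Genes were kept by edgeR's expression filter (minimum count 10, minimum total 15). Each SE was derived from the F statistic, as the size of the log2 fold change over its root. DESeq2 1.42.0, limma voom 3.58.1, other scalings, no filter, subsets of libraries and a replicate block were alternatives. Named list genes were up to 3 called genes per direction and age with the largest change and at least 1 CPM in the higher group. Replicate libraries differed by 5.41 to 45.3 times counting error (chi-square per degree of freedom), so none was a copy. Intervals for low counts are not given; Scn4b at 3 weeks and Scn10a had few counts. Promoter windows are RefSeq's on GRCm38.p6, matched by symbol for 6 of the 7 genes. Some genes of the lists are not reported here.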

Additional observations from a re-analysis of the deposited data

Results flagged for a closer look

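The genotype difference of Gja1, the main ventricular connexin gene, differed between ages by a test of the difference itself. The log2 fold change of KO over WT was 0.38 at 6 weeks and -0.61 at 3 weeks, a difference of 0.995 (SE 0.22, edgeR adjusted p = 0.0235). This call held without the libraries rich in atrial transcripts (0.92, adjusted p = 0.0350), but in only 4 of the 12 fits that each left out 1 library. Over those 12 fits the difference ran from 0.87 to 1.20. The log2 fold change was -0.45 at 10 weeks and 0.38 at 6 weeks, a difference of -0.83 (SE 0.22, edgeR adjusted p = 0.0314). This call was lost without the atrial-rich libraries (-0.74, adjusted p = 0.0564) and held in 5 of the 12 fits that each left out 1 library. Over those 12 fits the difference ran from -0.92 to -0.62. Both comparisons use the same libraries at 6 weeks, where all 3 KO values lay above all 3 WT values, and where the difference itself was not called.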

How the results depend on the processing

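Members called in each comparison were counted again under every alternative, with the share of all genes tested in that fit that it called. Only the changes that were larger relative to the main count are listed, so an unlisted count may also have changed. With no expression filter the count was 4 for KO against WT at 3 weeks (all genes 9.39%) and 4 for KO at 6 over 3 weeks (7.29%). It was then 1 for WT at 6 over 3 weeks (4.73%), 2 for WT at 10 over 6 weeks (5.64%), and 2, 2 and 1 for the interactions at 6 over 3, 10 over 6 and 10 over 3 weeks (2.96%, 5.22% and 4.98%). Without the libraries rich in atrial transcripts the counts were 1 for KO against WT at 3 weeks (13.5%), 1 for KO at 6 over 3 weeks (6.09%), 1 for KO at 10 over 6 weeks (6.44%) and 0 for the interaction at 10 over 6 weeks (3.44%). With only the groups compared they were 1 for KO at 10 over 6 weeks (6.08%) and 2 for WT at 10 over 6 weeks (16.9%). Smaller changes were also seen. Without the atrial-rich libraries, calls were lost for Gja1 in KO against WT at 10 weeks (adjusted p = 0.164) and Hcn2 in KO at 10 over 3 weeks (0.0715). That Gja1 call was also lost with RLE scaling (0.0519) and with only the groups compared (0.0716). With no expression filter Scn4b gained a call in KO against WT at 10 weeks (6.32e-06). The cause was not tested.

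With 1 library left out, KO against WT gave 0 to 2 calls at 3 weeks, 3 to 3 at 6 weeks and 2 to 4 at 10 weeks. Those fits called 8.10% to 15.7%, 16.4% to 20.8% and 21.7% to 29.5% of all genes they tested. The age comparisons gave 2 to 3, 1 to 3 and 3 to 5 in KO and 0 to 0, 0 to 0 and 2 to 2 in WT, and the interactions 0 to 1, 0 to 1 and 0 to 0. Single members were compared between fits in KO against WT, and in other contrasts only where the unadjusted edgeR p was under 0.05. Among these results the sign turned for Gja5 at 10 weeks without the atrial-rich libraries (-0.0209). With 1 library left out it turned for Gja5 at 3 weeks, whose log2 values ran from -0.344 to 0.065 (the highest without KO replicate 2), and for Gjc1 at 6 weeks, from -0.138 to 0.0228 (the highest without KO replicate 1). None of these was called.

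Same-numbered libraries of KO and WT at the same age had deviations correlated between -0.084 and 0.085. These values show no pairing by number, but they cannot exclude a pairing with small effects. With the replicate block, Hcn2 in KO at 10 over 6 weeks was called (-0.99, adjusted p = 0.0454, against -0.97 and 0.0595 without it). Among the member results compared between fits, the block changed no other call. Of the 45 recounts of each gene list, those more than 1.5 times away numbered 2 for sodium channel subunits, 22 for HCN channels and partners, 4 for connexins and pannexins, 5 for partners and 4 for the conduction list. Scn10a and, at 3 weeks, Scn4b had few counts.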

Other observations

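Scn2b, an auxiliary sodium channel subunit gene outside the naming rule, was looked at after its values were seen. It averaged 0.122 ± 0.107 CPM in KO and 0.574 ± 0.308 CPM in WT at 6 weeks (SD, n = 3 each) and was not called by edgeR (log2 -2.16, adjusted p = 0.0763). Its log2 fold change was -1.49 at 3 weeks (adjusted p = 0.225) and -0.16 at 10 weeks (adjusted p = 0.896). At 10 weeks it averaged 0.468 CPM in KO and 0.514 CPM in WT. All its group means were under 1 CPM.

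Markers of cells less tied to the 7 genes were counted as well. Of all tested genes, 15.3%, 23.8% and 29.3% were called at 3, 6 and 10 weeks. Of 7 epicardial markers 6 were higher in KO at 10 weeks, with summed levels of 28.4 to 76.3 CPM in KO and 8.54 to 15.6 CPM in WT, and 0 were called at 3 and 6 weeks. Of 9 fibroblast markers 6 were higher and 1 lower at 6 weeks, 1 higher and 3 lower at 3 weeks, and 1 higher and 1 lower at 10 weeks. Of 10 Schwann and glial markers 6 were tested, and 0, 2 and 2 were lower and 0 higher at the 3 ages, with summed levels at 6 weeks of 8.79 to 12.6 CPM in KO and 17.2 to 20.9 CPM in WT.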
